A study of Mus musculus with 20 samples.

Results

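The genes described here are 37 mouse genes of cholesterol synthesis, its control by sterol regulatory element-binding proteins (SREBP), lipoprotein uptake and intracellular transport, ester storage and efflux. They were chosen by name, with earlier results of these data known. Each was matched by its symbol to 1 Ensembl gene among the 54838 genes listed in every library. The libraries came from ovaries of 20 female mice, with an age label of 77 days, and were made with a 3' mRNA-Seq kit that reads the end of each transcript next to its poly(A) tail. The 4 groups held 5 animals each. They were ctrl in estrus, ctrl in diestrus, FL1 in estrus and FL1 in diestrus. FL1 is the Dummerstorf line selected over many generations for litter size and litter weight, and ctrl is the unselected line from the same outbred founder stock, and the labels name no treatment of either. The cycle stage had been read from the cells of vaginal smears, and all mice carried the genotype label WT. Total counts per library ranged from 5991223 to 10352718. Levels are given as normalised counts scaled to a common library size (CPM), in which 3 counts, taken as the floor, corresponded to 0.290 to 0.501 CPM.

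Cells build cholesterol from acetyl-CoA through mevalonate, isoprenoids, squalene and a series of sterol intermediates. When sterol in the endoplasmic reticulum is scarce, Scap escorts the SREBP precursors to the Golgi, where the active transcription factors are released, and when it is plentiful the Insig proteins hold Scap back. In the ovary, cholesterol is the substrate of all steroid hormones, and luteal cells of rodents take up much of theirs from high-density lipoprotein and store it as esters.

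Of the 37 genes, 36 had enough counts to be tested in every comparison. Idi1, the isopentenyl diphosphate isomerase, had 0 to 3.76 CPM per library and was too low to be tested between the lines in estrus and between the stages in ctrl. A gene was called when its adjusted p was at most 0.05 in edgeR's quasi-likelihood test with Benjamini-Hochberg adjustment over all tested genes, and each adjusted p below comes from it. Differences are FL1 minus ctrl between the lines and estrus minus diestrus between the stages, on the log2 scale (log2FC). By this rule 26 of the 37 genes were called in at least 1 of the 4 comparisons and 11 in none. The 2 comparisons of an estrus with a diestrus group share libraries with the 2 comparisons of the lines, so their calls are not separate pieces of evidence.

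Libraries stood apart within both ctrl groups. Over 12841 genes, ctrl estrus 5 had a mean distance of 83.0 on the log2 scale to the other libraries of its group, compared with 61.2 to 65.1 for the other 4. It was the highest of its group in 17 of the 19 synthesis enzymes. In ctrl diestrus, replicate 5 was the lowest in 15 of the 19 and replicate 3 the highest in 15, whereas the mean distances of that group spanned only 57.2 to 62.2. Such an order was not limited to ctrl. FL1 diestrus 1 was the highest of its group in 15 of the 19 and FL1 estrus 3 in 11. The median SD of the synthesis enzymes between libraries was 0.62 on the log2 scale in ctrl diestrus and 0.39 in ctrl estrus, and it was 0.30 in FL1 diestrus and 0.23 in FL1 estrus. Over all tested genes the corresponding values were 0.24, 0.29, 0.21 and 0.22, so that the synthesis enzymes varied between ctrl diestrus ovaries more than a typical gene did.

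The largest number of calls came from the comparison of the stages in FL1. In estrus 23 of the 37 genes were lower than in diestrus and 1, Lipa, was higher, with 15.9% of 13350 tested genes called in the same comparison (8.49% lower and 7.42% higher). The median log2FC of the 37 genes was -1.01, against 0.01 over all tested genes. The 2 groups did not overlap in 21 of the 37 genes, compared with 12.2% of all tested genes. In ctrl the same comparison called 2 of 36 genes lower in estrus and 1 higher, where 2.85% of 13334 tested genes were called (1.06% lower and 1.78% higher), and groups did not overlap in 3 of 36 genes against 4.51% of all. Without ctrl estrus 5 the ctrl comparison called 5 of the genes, 2 of the 3 among them. The 2.85% is the share in the fit with all libraries and is not the background of those 5. Calls over all genes also changed when 1 library was left out. The median log2FC of the 36 genes in ctrl was -0.40, against -0.01 over all tested genes. Since whole ovaries were read, fewer cells of a type and less RNA per cell cannot be told apart in any of these differences.

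FL1 differed from ctrl in 6 of 37 genes in diestrus, 5 of them higher and 1 lower, with 4.11% of 13259 tested genes called (2.29% higher and 1.82% lower) and with 5 of the 37 genes and 5.45% of all genes free of overlap. In estrus 1 of 36 genes was called, higher in FL1, and 2.33% of 13374 tested genes were called (1.07% higher and 1.26% lower). No gene of the 36 was free of overlap in that comparison, against 4.88% of all genes. The test of whether the line difference depended on the stage (the interaction, the line difference in estrus minus that in diestrus) called 0 of the 37 genes and 0.0565% of 14154 tested genes in edgeR. With that test 9 of the 37 genes and 1654 of all genes had an unadjusted p under 0.05, DESeq2 called 3 of the 37 and limma-voom called 0. The 0.0565% is the share in edgeR and not the background of the DESeq2 calls, as DESeq2 also called more of all genes (given below). Whether a stage difference was larger in FL1 than in ctrl was therefore not shown for any of these genes in the edgeR fit, whatever the counts of calls in the single lines.

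**Figure D1:**
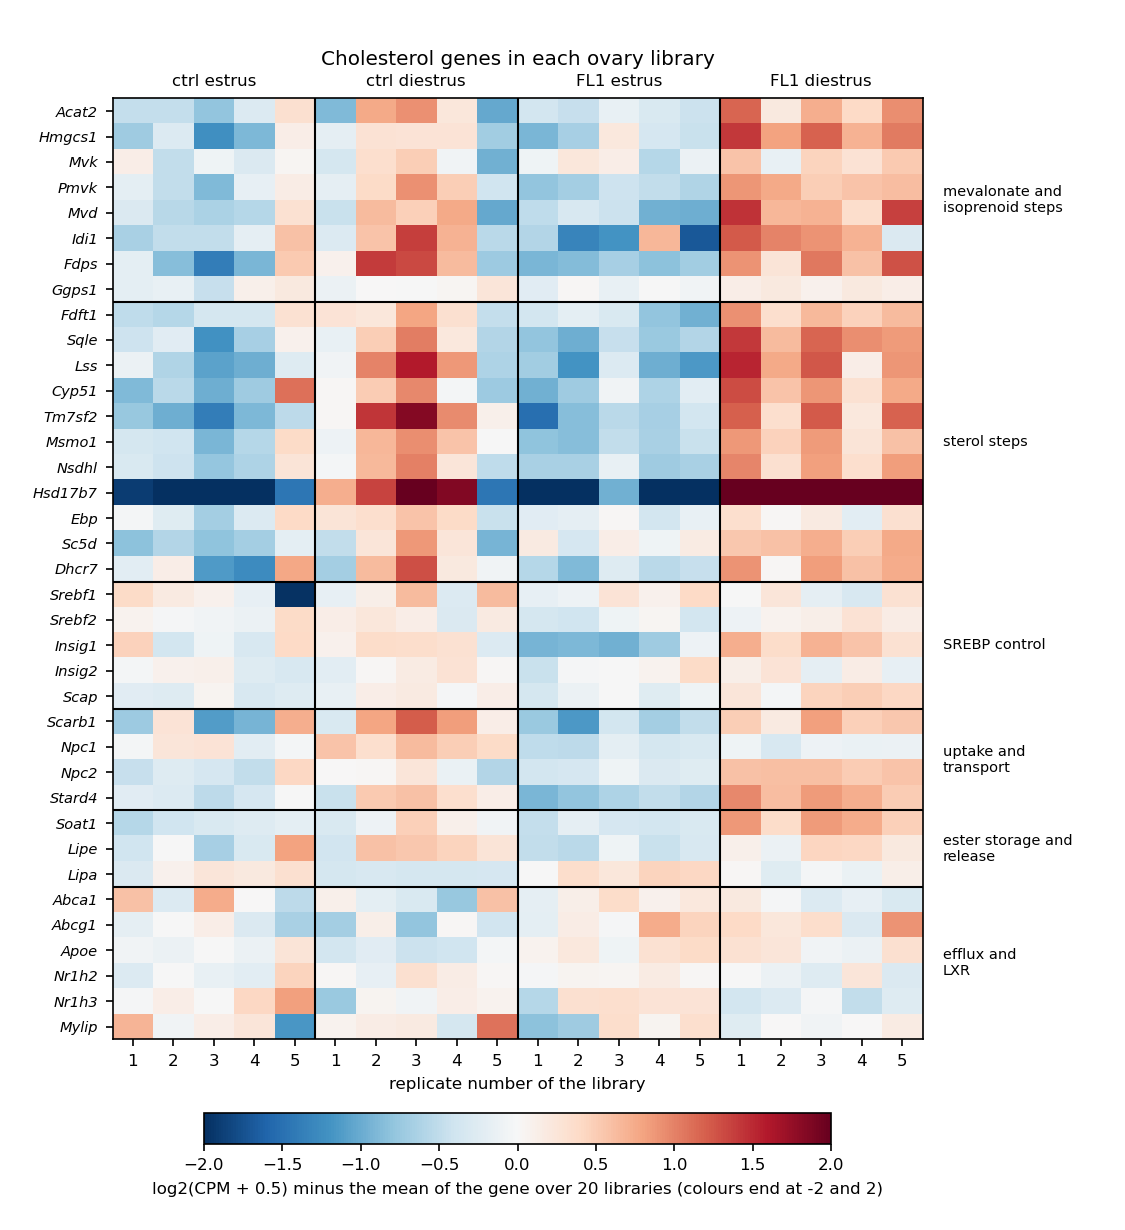
Level of the 37 genes (rows, grouped by role) in the 20 libraries (columns, by group and replicate number), as log2 of CPM plus 0.5 minus the mean of the gene over all libraries, red above and blue below that mean. The 5 FL1 diestrus libraries are red over most synthesis rows, the FL1 estrus libraries and ctrl estrus 1 to 4 are mostly blue, and the ctrl diestrus libraries range from red in replicate 3 to blue in replicate 5.

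The first steps, from acetyl-CoA to the isoprenoids, comprised 8 genes. Of these 5 fell in estrus of FL1, where 8.49% of all tested genes were called lower. None was called between the stages in ctrl, where 2.85% of all tested genes were. Between the lines, 1 of 8 was called in diestrus and 0 of 7 tested in estrus, against 4.11% and 2.33% of all tested genes. Hmgcs1, the cytosolic synthase that makes hydroxymethylglutaryl-CoA, was also the only one of the 8 that differed between the lines. It was at 1247, 819.7, 1063, 754 and 961 CPM in FL1 diestrus (replicates 1 to 5) and at 412, 573, 566, 567 and 288 CPM in ctrl diestrus. All 5 FL1 values lay above all 5 ctrl values, and the mean was 2.01 times as high by the fit (log2FC 1.01, SE 0.18, adjusted p = 0.00658). In estrus Hmgcs1 was at 248, 294, 541, 368 and 344 CPM in FL1 and at 285, 387, 199, 249.8 and 514 CPM in ctrl. Those groups overlapped, and the log2FC of 0.13 was not called (adjusted p = 0.845). Between the stages Hmgcs1 was lower in estrus of FL1 (log2FC -1.43, SE 0.18, adjusted p = 4.6e-05), and in ctrl its log2FC was -0.56 (adjusted p = 0.302). Hmgcs1 (ENSMUSG00000093930, chr13:119690379-119708260 in GRCm38) lies on the forward strand.

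Fdps, which joins isoprenoid units into farnesyl diphosphate, was at 36.5, 37.9, 43.7, 39.1 and 42.9 CPM in FL1 estrus and at 129, 82.96, 144, 105 and 168 CPM in FL1 diestrus. The FL1 groups were far apart (log2FC -1.65, SE 0.15, adjusted p = 2.08e-06). In ctrl it was at 60.7, 38.5, 26.4, 36.7 and 101 CPM in estrus and at 73.8, 183, 173, 108 and 41.9 CPM in diestrus, where ctrl estrus 5 exceeded ctrl diestrus 1 and 5 and the difference was not called (log2FC -1.15, adjusted p = 0.165). Pmvk, the phosphomevalonate kinase, was at 14.6, 15.8, 19.01, 18.05 and 16.7 CPM in FL1 estrus and 47.8, 43.6, 36.3, 38.3 and 39.6 CPM in FL1 diestrus, and the 2 groups did not overlap (log2FC -1.29, SE 0.12, adjusted p = 2.17e-06). In ctrl Pmvk was at 22.3, 18.1, 13.6, 22.6 and 28.4 CPM in estrus and 22.5, 33.5, 48.5, 36.3 and 19.3 CPM in diestrus, with overlapping groups and a log2FC of -0.61 (adjusted p = 0.253). Mvd, the decarboxylase that follows it, was at 21.2, 24.2, 22.4, 15.4 and 15.2 CPM in FL1 estrus and 83.6, 48.4, 49.5, 38.9 and 79.3 CPM in FL1 diestrus (log2FC -1.61, SE 0.21, adjusted p = 5.91e-05). Its values were 24.8, 20.4, 19.4, 20.3 and 37.7 CPM in ctrl estrus and 22.2, 47.3, 42.6, 51.8 and 14.6 CPM in ctrl diestrus, so that ctrl diestrus 5 was below every ctrl estrus library and the log2FC of -0.55 was not called (adjusted p = 0.45).

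Acat2, the thiolase of the first condensation, was at 114 to 221 CPM in FL1 diestrus and 71.4 to 89.2 CPM in FL1 estrus, where it also fell (log2FC -1.06, SE 0.15, adjusted p = 0.000117). The other 3 genes of these steps were not called in any comparison. Mvk, the mevalonate kinase, had a mean of 26.2 ± 5.34 CPM (SD, n = 5) in FL1 estrus and 35.04 ± 6.44 CPM in FL1 diestrus, with an adjusted p of 0.0882. Ggps1, which makes the geranylgeranyl chain for protein anchoring and so stands beside the route to cholesterol, kept group means between 43.03 and 50.7 CPM. Its FL1 groups did not overlap, although the log2FC of -0.24 had an adjusted p of 0.0689. The fitted log2FC of Idi1 in FL1 was -2.01 with an SE of 0.68 (adjusted p = 0.0545), at 0 to 2.07 CPM in FL1 estrus and 0.835 to 3.30 CPM in FL1 diestrus.

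From squalene onward, 10 of 11 genes fell in estrus of FL1, against 8.49% of all tested genes, and the other, Ebp, did not pass the test. In ctrl 2 of the 11 were called, Hsd17b7 and Tm7sf2, both lower in estrus, against 1.06% of all tested genes called lower. The median log2FC of the 11 genes was -1.26 in FL1 and -0.72 in ctrl. Between the lines, 1 of the 11 was called in estrus, Sc5d, and 1 in diestrus, Hsd17b7. Of all tested genes 2.33% and 4.11% were called in these comparisons.

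Hsd17b7 had the largest fitted change of the 37 genes between the stages in both lines and between the lines in diestrus. Its enzyme reduces the keto group of sterol intermediates, and it was first described in the corpus luteum as a protein bound to the prolactin receptor that also converts estrone to estradiol. Hsd17b7 (ENSMUSG00000026675, chr1:169949535-169969241, reverse strand) was at 3288, 1989, 2531, 2892 and 2039.9 CPM in FL1 diestrus and at 40.2, 41.9, 128, 42.9 and 45.1 CPM in FL1 estrus. The lowest diestrus library was thus far above the highest estrus library, FL1 estrus 3, which itself exceeded the other 4 of its group. The fold was 42.5 (log2FC -5.41, SE 0.32, adjusted p = 1.56e-08), which ranked 7 by smallest p and 6 by most negative log2FC among the 13350 tested genes. In ctrl Hsd17b7 was at 416, 641, 1032, 902 and 91.04 CPM in diestrus and at 67.01, 60.4, 47.5, 52.9 and 91.96 CPM in estrus. Ctrl diestrus 5 was within the estrus range while the other 4 diestrus libraries were well above it, and the difference was called (log2FC -3.27, SE 0.48, adjusted p = 0.0036). In diestrus the FL1 libraries all exceeded the ctrl libraries, by 4.13 times in the fit (log2FC 2.05, SE 0.43, adjusted p = 0.0152). In estrus the 2 lines overlapped (log2FC -0.09, adjusted p = 0.918). The interaction log2FC was -2.14 with a 95% confidence interval of -3.35 to -0.93 and an adjusted p of 0.142.

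Sqle, the squalene monooxygenase and a slow step of the pathway, was at 287, 166, 240.4, 204 and 194 CPM in FL1 diestrus and at 61.8, 53.8, 77.3, 63.9 and 71.04 CPM in FL1 estrus. The FL1 groups did not overlap (log2FC -1.73, SE 0.14, adjusted p = 3.82e-07). In ctrl Sqle was at 96.2, 151, 217, 124 and 70.7 CPM in diestrus and 80.3, 91.2, 45.9, 67.6 and 113 CPM in estrus, with ctrl diestrus 5 inside the estrus range and ctrl estrus 5 inside the diestrus range (log2FC -0.73, adjusted p = 0.211). The line difference in diestrus was 0.73 on the log2 scale and not called (adjusted p = 0.113). Lss, which closes squalene epoxide to lanosterol, was at 90.1, 52.6, 73.7, 33.8 and 57.6 CPM in FL1 diestrus and 18.8, 13.2, 25.4, 15.4 and 13.7 CPM in FL1 estrus, again without overlap (log2FC -1.82, SE 0.23, adjusted p = 5.42e-05). It was at 29.3, 61.98, 93.6, 56.7 and 20.03 CPM in ctrl diestrus and 28.5, 20.1, 14.5, 15.4 and 25.7 CPM in ctrl estrus. The ctrl log2FC of -1.33 fell short of the threshold (adjusted p = 0.0644), with ctrl diestrus 5 at the level of the estrus libraries.

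Msmo1, the methylsterol monooxygenase, was at 803, 607, 794, 525 and 665 CPM in FL1 diestrus and 253, 243, 313, 280.2 and 325 CPM in FL1 estrus, and the groups were well separated (log2FC -1.26, SE 0.12, adjusted p = 3.2e-06). In ctrl it was at 411, 702, 843, 655 and 437 CPM in diestrus and 346, 335, 234, 298 and 575 CPM in estrus. Only ctrl estrus 5 reached into the diestrus range, and the log2FC of -0.77 was not called (adjusted p = 0.123). Nsdhl, the dehydrogenase that works with Msmo1 in removing methyl groups, was at 189, 119.9, 168, 121 and 171 CPM in FL1 diestrus and 60.7, 61.03, 86.3, 57.99 and 60.97 CPM in FL1 estrus (log2FC -1.24, SE 0.14, adjusted p = 2.02e-05). FL1 estrus 3 was the highest library of its group for Nsdhl as it was for Hsd17b7, and still below all diestrus libraries. Nsdhl was at 92.5, 149.9, 194, 113 and 66.7 CPM in ctrl diestrus and 77.6, 71.5, 55.7, 62.2 and 114 CPM in ctrl estrus (log2FC -0.70, adjusted p = 0.195).

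Dhcr7, the reductase that yields cholesterol itself in the last step of one branch, was at 642, 351, 615, 522 and 578 CPM in FL1 diestrus and 232, 186, 289, 237 and 249.9 CPM in FL1 estrus. These groups did not overlap (log2FC -1.18, SE 0.14, adjusted p = 3.88e-05). In ctrl Dhcr7 was at 215, 537, 848, 396 and 328 CPM in diestrus and 297, 378, 158, 144 and 589 CPM in estrus, a spread of several times within each stage, and its log2FC was -0.57 (adjusted p = 0.56). Tm7sf2, a sterol reductase, was the other gene of these steps called in both lines. It was at 30.1 to 107 CPM in ctrl diestrus and 11.1 to 20.4 CPM in ctrl estrus (log2FC -1.96, SE 0.33, adjusted p = 0.00692). In FL1 it was at 34.3 to 70.5 CPM in diestrus and 10.2 to 22.8 CPM in estrus (log2FC -1.66, SE 0.23, adjusted p = 0.000113), and the stages did not overlap in either line. Its interaction log2FC was 0.30, with an interval of -0.59 to 1.19, so that this design leaves room for sizeable differences between the lines in either direction.

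Sc5d, the desaturase that acts just before Dhcr7, was the only gene of the 37 called between the lines in estrus. It was at 170.2 to 243 CPM in FL1 estrus and 122 to 187 CPM in ctrl estrus, and the groups overlapped through ctrl estrus 5 (log2FC 0.62, SE 0.14, adjusted p = 0.0315). In diestrus the ranges were 302 to 363 CPM in FL1 and 112 to 392 CPM in ctrl, with a log2FC of 0.51 (adjusted p = 0.292). The call in estrus was kept in 2 of 10 fits that each left out 1 library, those without ctrl estrus 5 and FL1 estrus 2, and its adjusted p in the other 8 was 0.0571 to 0.0859. Fdft1, the squalene synthase, was at 50.6 to 75.7 CPM in FL1 diestrus and 20.4 to 34.9 CPM in FL1 estrus and fell (log2FC -1.12, adjusted p = 9.33e-05). Cyp51, the lanosterol demethylase, was at 244 to 487 CPM in FL1 diestrus and 102 to 189 CPM in FL1 estrus and also fell (log2FC -1.27, adjusted p = 0.000141). Sc5d itself had a log2FC of -0.60 (adjusted p = 0.000605) between these groups. For Cyp51 the ctrl groups overlapped, with ctrl estrus 5 at 423 CPM above every other ctrl library and ctrl diestrus 5, the lowest of its group at 119.5 CPM, below ctrl estrus 2 and 4. Ebp, a sterol isomerase, was not called in any comparison, with a log2FC of -0.32 (adjusted p = 0.0552) in FL1.

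**Figure D2:**
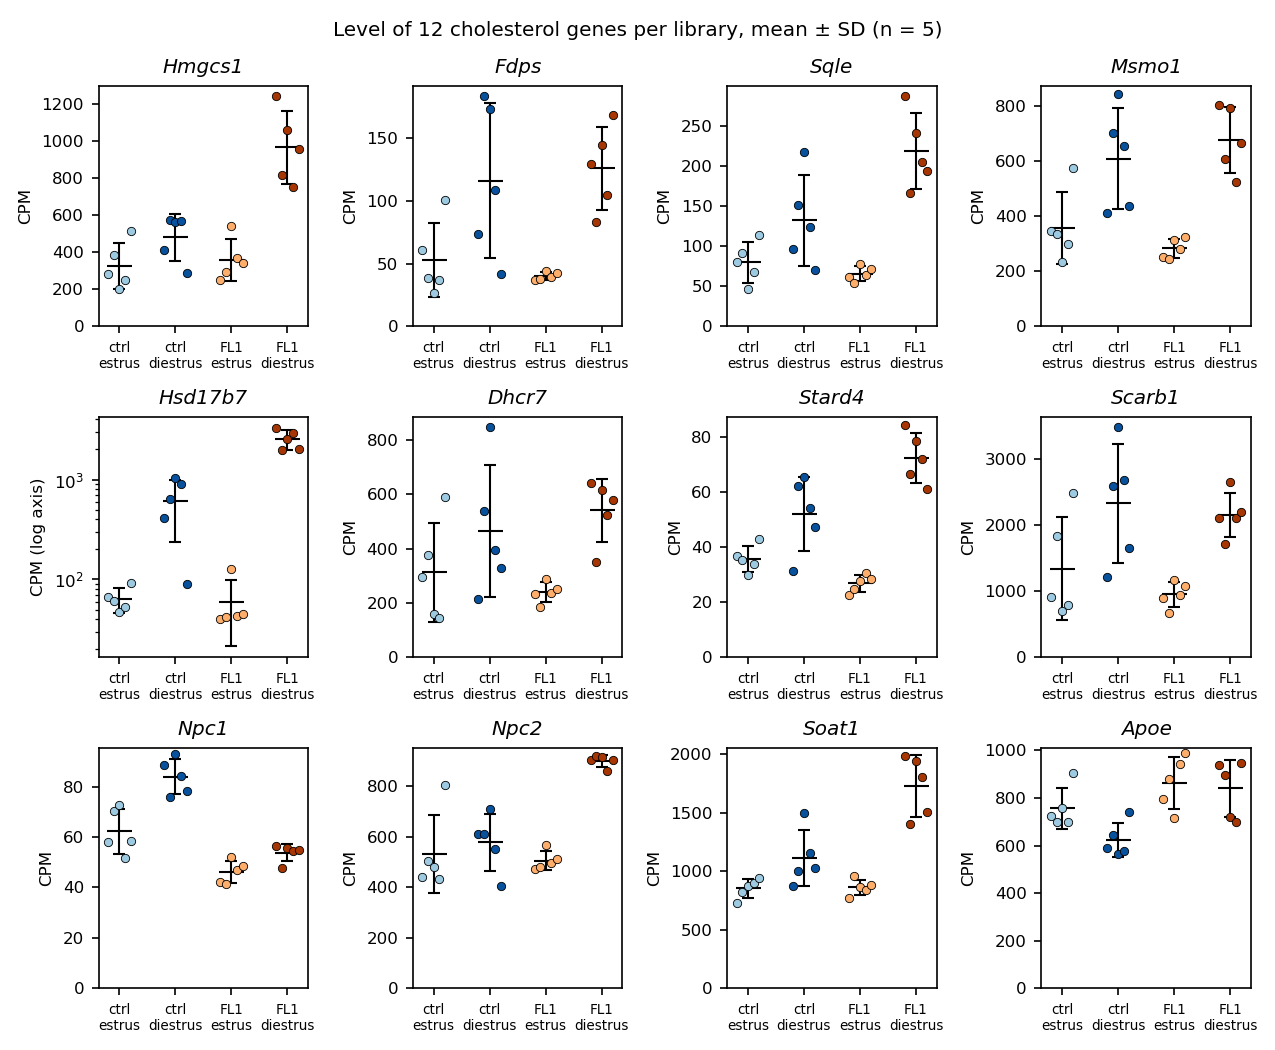
CPM of 12 of the genes in each library (points, 5 per group, in replicate order from left to right), with the mean and SD of each group as black marks. The axis of Hsd17b7 is logarithmic and all others start at 0. FL1 diestrus stands above FL1 estrus without overlap in every panel except Npc1 and Apoe, and above ctrl diestrus without overlap for Hmgcs1, Hsd17b7 and Npc2.

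All 23 genes that were lower in estrus of FL1 also had a negative log2FC in ctrl, a comparison with no library in common. Their median log2FC was -1.25 in FL1 and -0.56 in ctrl. Of all 1133 genes called lower in estrus of FL1, 1098 were tested in ctrl and 78.8% of them had a negative log2FC there, with medians of -0.56 in FL1 and -0.21 in ctrl. The 19 synthesis enzymes had interaction log2FCs below 0 in 16 cases, with a median of -0.57 against 0.01 over all tested genes, and none was called. Of all 14154 tested genes, 6933 were below 0. These enzymes moved together across libraries, so the 16 cases are not separate observations. Ctrl estrus 5 was highest of its group in 17 of the 19. Ctrl diestrus 5 was lowest in 15 and ctrl diestrus 3 highest in 15. FL1 diestrus 1 was highest of its group in 15 and FL1 estrus 3 in 11. How far single libraries set the 16 cases was not tested. The lowest adjusted p of the interaction among the 37 genes was 0.114 for Stard4, followed by 0.123 for Insig1 and 0.142 for Hsd17b7.

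Among the 5 genes of SREBP control, Insig1, Scap and Srebf2 fell in estrus of FL1, while Srebf1 and Insig2 did not pass the test in any comparison. In FL1 8.49% of all tested genes were called lower in estrus. None of the 5 was called in ctrl or between the lines. Of all tested genes 2.85% were called in ctrl, and 2.33% and 4.11% between the lines in estrus and diestrus. Insig1, which retains Scap in the endoplasmic reticulum and is itself an SREBP target, was at 7.77 to 14.5 CPM in FL1 estrus and 19.4 to 25.97 CPM in FL1 diestrus (log2FC -1.25, SE 0.19, adjusted p = 0.000229). In ctrl its means were 16.2 ± 4.62 CPM in estrus and 17.7 ± 3.12 CPM in diestrus (log2FC -0.14, adjusted p = 0.824). The line difference of Insig1 was -0.76 in estrus and 0.37 in diestrus on the log2 scale, and the interaction interval was -1.71 to -0.53 before adjustment. Srebf2, which encodes the factor that mainly drives the synthesis genes, changed little by comparison. It was at 52.01 to 70.4 CPM in FL1 estrus and 63.4 to 83.4 CPM in FL1 diestrus (log2FC -0.33, SE 0.11, adjusted p = 0.0416), with overlapping groups. Its call was kept in 3 of 10 fits that left out 1 library and lost without FL1 estrus 1, 2 or 5 or FL1 diestrus 2, 3, 4 or 5, where the adjusted p was 0.0567 to 0.108. Scap was at 293 to 423 CPM in FL1 diestrus and fell in estrus, where it was at 236 to 298 CPM (log2FC -0.48, adjusted p = 0.00419). Srebf1, which drives fatty acid genes more than sterol genes, had a log2FC of 0.09 (adjusted p = 0.727), and ctrl estrus 5 was at 6.52 CPM compared with 24.2 to 35.6 CPM in the other 4 libraries of its group. Insig2, the second Insig gene, had a log2FC of -0.03 (adjusted p = 0.907).

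Because many of these genes moved together between the stages, their promoters were read for the short motifs that SREBP and its partner factors are known to bind. RefSeq windows of 300 bases (250 before the transcription start and 50 after it, GRCm38.p6) were held for 30 of the 37 genes. For 8 of them more than 1 window was held, and a motif in any window of a gene was counted once for that gene. The sterol element TCACNCCAC, searched on both strands like the other motifs, was found in 1 of the 30 (3.33%), Hmgcs1. Of all 27025 genes with a window, 1.44% held it. The CCAAT box (CCAAT), bound by NF-Y, was found in 23 of 30 (76.7%), compared with 41.1% of all genes. It was present in all 9 genes of the sterol steps with a window and in 1 of 5 such genes of efflux and LXR. Genes with the GC box GGGCGG made up 25 of 30 (83.3%, against 38.2% of all genes), and the steroidogenic half-site CAAGGTCA occurred in 1, Dhcr7 (3.33% against 1.76%). Among the 18 genes with a window that fell in estrus of FL1, 15 held a CCAAT box (83.3%), and among the 12 others 8 did (66.7%). A match in these letters is a description of the sequence and does not show binding. Below are the 250 bases before the start of Hmgcs1 (chr13:119690101-119690350, forward strand), the gene with the sterol element, of Msmo1 (chr8:64733579-64733828, reverse strand) and Hsd17b7 (chr1:169969206-169969455, reverse strand), 2 sterol-step genes that fell in FL1 estrus, and of Abca1 (chr4:53159896-53160145, reverse strand), an efflux gene that was not called. The starts are those of RefSeq and can differ from those of GENCODE. Capitals mark the sterol element and each CCAAT box in either orientation.
Hmgcs1: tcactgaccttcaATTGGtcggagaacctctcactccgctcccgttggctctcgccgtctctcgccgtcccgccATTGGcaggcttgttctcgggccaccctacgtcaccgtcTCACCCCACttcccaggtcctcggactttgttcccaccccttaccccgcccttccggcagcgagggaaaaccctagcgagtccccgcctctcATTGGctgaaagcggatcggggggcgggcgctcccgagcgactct
Msmo1: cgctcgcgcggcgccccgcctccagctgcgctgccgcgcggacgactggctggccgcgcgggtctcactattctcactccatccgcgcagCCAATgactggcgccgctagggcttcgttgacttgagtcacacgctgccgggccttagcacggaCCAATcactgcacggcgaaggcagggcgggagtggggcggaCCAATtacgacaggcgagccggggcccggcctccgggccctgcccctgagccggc
Hsd17b7: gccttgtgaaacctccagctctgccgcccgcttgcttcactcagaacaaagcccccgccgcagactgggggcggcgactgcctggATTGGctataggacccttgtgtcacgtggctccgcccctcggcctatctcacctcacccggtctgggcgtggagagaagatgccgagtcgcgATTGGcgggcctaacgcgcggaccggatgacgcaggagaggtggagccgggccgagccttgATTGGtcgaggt
Abca1: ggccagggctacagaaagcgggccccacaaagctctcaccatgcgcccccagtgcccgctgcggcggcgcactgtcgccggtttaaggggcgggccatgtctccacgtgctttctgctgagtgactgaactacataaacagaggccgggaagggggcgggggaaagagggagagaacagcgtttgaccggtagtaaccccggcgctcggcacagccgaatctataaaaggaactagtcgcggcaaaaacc
The printed stretches of Hmgcs1, Msmo1 and Hsd17b7 hold 3 CCAAT boxes each and that of Abca1 holds 0.

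Of the 4 genes of uptake and intracellular transport, Scarb1, Npc2 and Stard4 fell in estrus of FL1, and Npc1 and Npc2 differed between the lines in diestrus in opposite directions. None was called in ctrl between the stages. Of all tested genes 8.49% were called lower in estrus of FL1, 4.11% were called between the lines in diestrus and 2.85% between the stages in ctrl. Npc2 and Npc1 are the soluble and the membrane-bound protein that hand cholesterol out of the lysosome. Npc2 (ENSMUSG00000021242, chr12:84754562-84773152) was at 903, 917, 916, 860.1 and 901 CPM in FL1 diestrus and at 609.8, 612, 710.3, 553 and 404 CPM in ctrl diestrus. Every FL1 library was above every ctrl library (log2FC 0.64, SE 0.12, adjusted p = 0.00794). In estrus Npc2 was at 469.8, 479.8, 566, 495 and 509.7 CPM in FL1 and at 439.8, 504, 479, 431 and 804 CPM in ctrl, where ctrl estrus 5 was far above the rest and the log2FC of -0.08 was not called (adjusted p = 0.859). Between the stages Npc2 fell in estrus of FL1 (log2FC -0.84, SE 0.08, adjusted p = 1.7e-06) and had a log2FC of -0.12 (adjusted p = 0.824) in ctrl.

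Npc1 (ENSMUSG00000024413, chr18:12189692-12236400) was the only gene of the 37 called lower in FL1. It was at 47.8 to 56.4 CPM in FL1 diestrus and 75.7 to 92.7 CPM in ctrl diestrus, without overlap (log2FC -0.64, SE 0.09, adjusted p = 0.000893), and this call was kept in all 10 fits that left out 1 library. In estrus it was at 41.5 to 52.1 CPM in FL1 and 51.7 to 72.6 CPM in ctrl, with a log2FC of -0.43 (adjusted p = 0.0789). The interaction log2FC of Npc1 was 0.21 with an interval of -0.08 to 0.51. Its last 500 bases overlap Rmc1 on the opposite strand, which had 1798 counts over all libraries compared with 9064 for Npc1, and since the strand setting of the counting was not given in the sources used here, reads of the 2 genes cannot be told apart.

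Stard4, a cytosolic carrier of sterol, was at 84.2, 66.7, 78.4, 71.9 and 61.3 CPM in FL1 diestrus and 22.7, 24.7, 27.8, 30.5 and 28.5 CPM in FL1 estrus. The lowest diestrus value was well above the highest estrus value (log2FC -1.43, SE 0.11, adjusted p = 3.82e-07). In ctrl it was at 31.4, 62.1, 65.3, 54.4 and 47.3 CPM in diestrus and 36.8, 35.5, 29.8, 33.97 and 42.8 CPM in estrus, with ctrl diestrus 1 inside the estrus range (log2FC -0.54, adjusted p = 0.139). The log2FC of FL1 against ctrl was -0.41 in estrus and 0.48 in diestrus, and neither was called (adjusted p = 0.13 and 0.135). Scarb1, the receptor that takes cholesteryl esters from high-density lipoprotein, was at 2111, 1707, 2654, 2101 and 2189.6 CPM in FL1 diestrus and 900.3, 676, 1163, 939.6 and 1072 CPM in FL1 estrus (log2FC -1.18, SE 0.14, adjusted p = 2.37e-05). It was at 1219, 2589, 3485, 2686 and 1651 CPM in ctrl diestrus and 912, 1826, 696, 791 and 2484 CPM in ctrl estrus. Ctrl estrus 2 and 5 were within the diestrus range and the log2FC was -0.80 (adjusted p = 0.314). Between the lines Scarb1 had log2FCs of -0.50 in estrus and -0.11 in diestrus (intervals -1.16 to 0.16 and -0.59 to 0.36), neither of them called.

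Storage and release of esters were represented by 3 genes, all of them called between the stages in FL1, against 15.9% of all tested genes. Soat1, which esterifies cholesterol for lipid droplets, was at 1985, 1405, 1947, 1808 and 1504 CPM in FL1 diestrus and 777, 960.1, 863, 838 and 879.5 CPM in FL1 estrus (log2FC -1.01, SE 0.11, adjusted p = 8.66e-06). It was at 879, 1006, 1500.5, 1158 and 1032 CPM in ctrl diestrus and 731, 824, 875, 904 and 942 CPM in ctrl estrus. FL1 diestrus was above the other 3 groups except for ctrl diestrus 3, and the line difference in diestrus was called (log2FC 0.63, SE 0.14, adjusted p = 0.0208). That call was kept in 6 of 10 fits that left out 1 library, and the adjusted p was 0.0538 to 0.0611 without ctrl diestrus 2 or FL1 diestrus 1, 3 or 4. In estrus the log2FC between the lines was 0.01 with an interval of -0.21 to 0.23. Lipe, the hormone-sensitive lipase that frees droplet cholesterol in steroidogenic cells, was at 64.7 to 94.3 CPM in FL1 diestrus and fell in estrus, where it was at 47.95 to 65.6 CPM (log2FC -0.59, SE 0.12, adjusted p = 0.00248), and in a fit of all 20 libraries this had an adjusted p of 0.0774.

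Lipa, the acid lipase that splits lipoprotein esters in the lysosome, moved in the other direction and was the only gene of the 37 called higher in estrus. Its range was 89.4 to 121 CPM in FL1 estrus and 75.5 to 96.8 CPM in FL1 diestrus (log2FC 0.34, SE 0.10, adjusted p = 0.0246), and it was 72.9 to 112 CPM in ctrl estrus and 69.7 to 71.4 CPM in ctrl diestrus (log2FC 0.47, SE 0.11, adjusted p = 0.0441). The ctrl groups did not overlap. Both calls were near the threshold. The call in ctrl was kept in 1 of 10 fits that left out 1 library, the one without ctrl estrus 1 (adjusted p up to 0.11 without ctrl estrus 4), and the call in FL1 in 4 of 10, with an adjusted p of 0.051 to 0.0667 without FL1 estrus 2, 4 or 5 or FL1 diestrus 2, 3 or 4. The sign stayed positive in all of these fits.

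The 6 genes of efflux and its control by the liver X receptors (LXR) held no gene called between the stages, 0 of 6 in FL1 and 0 of 6 in ctrl, against 15.9% and 2.85% of all tested genes, and in each line 1 of the 6 had an unadjusted p under 0.05 in edgeR. Their difference from the synthesis genes was not tested. Their median log2FC was 0.08 in FL1 and 0.18 in ctrl. Apoe, the apolipoprotein that carries released cholesterol, was higher in FL1 than in ctrl in diestrus, at 698 to 945 against 563 to 739.9 CPM (log2FC 0.43, SE 0.11, adjusted p = 0.0459). The ranges overlapped through ctrl diestrus 5, and the call was kept in 3 of 10 fits that left out 1 library, those without ctrl diestrus 5, FL1 diestrus 3 and FL1 diestrus 4. The adjusted p in the other 7 fits was 0.0693 to 0.114. In estrus the log2FC of Apoe between the lines was 0.19 (adjusted p = 0.478). The exporters Abca1 and Abcg1 had group means of 109 to 133 CPM and 8.21 to 13.3 CPM, and the largest difference of the pair was that of Abcg1 between the lines in diestrus (log2FC 0.69, adjusted p = 0.151). Nr1h3 and Nr1h2, which encode the LXRs, had log2FCs of 0.45 (adjusted p = 0.104) and 0.12 (adjusted p = 0.474) between the stages in FL1. Mylip, an LXR target that marks lipoprotein receptors for degradation, had a log2FC of -0.34 (adjusted p = 0.47) between the lines in diestrus, and its highest library was ctrl diestrus 5 at 36.2 CPM.

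**Figure D3:**
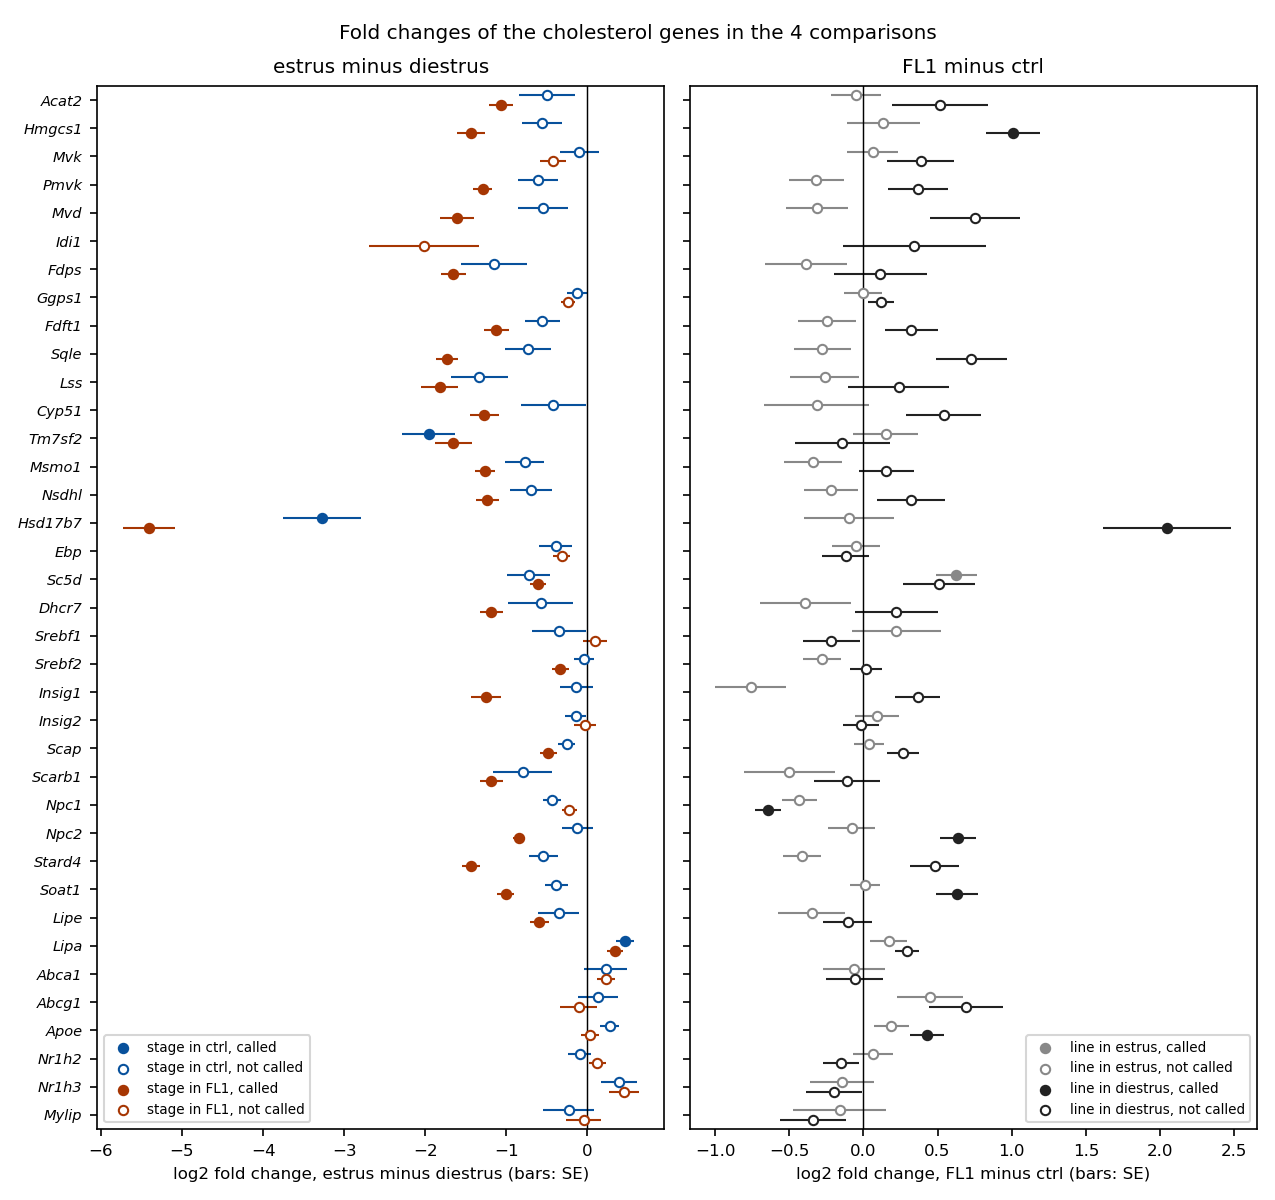
Log2FC of each of the 37 genes with its SE (bars), between the stages (left, blue for ctrl and red-brown for FL1) and between the lines (right, grey for estrus and black for diestrus), with filled points for called genes. The synthesis genes in the upper part of the left panel lie left of 0 in both lines, down to -5.41 for Hsd17b7 in FL1, and on the right 6 of the 7 filled points lie above 0 with Npc1 at -0.64 below it.

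A list of 20 other genes of cholesterol handling, chosen by function but with earlier results of these data known, was read in the same fits. Of its 17 genes tested in FL1, 2 were lower and 2 higher in estrus (median log2FC -0.08). That is 23.5%, with 15.9% of all tested genes called. Of 17 tested in diestrus, 2 were higher in FL1 (11.8%, with 4.11% of all tested genes called). In ctrl 1 of 18 was called between the stages (5.56%, with 2.85% of all tested genes called). In estrus 0 of 18 were called between the lines (2.33% of all tested genes), where 0 had an unadjusted p under 0.05. Lrp8, a lipoprotein receptor for Apoe-rich particles, was at 41.9 ± 13.8 CPM in FL1 diestrus and 12.3 ± 3.68 CPM in ctrl diestrus (log2FC 1.76, SE 0.25, adjusted p = 0.00113), and it was lower in FL1 estrus at 17.2 ± 2.78 CPM (log2FC -1.29, SE 0.20, adjusted p = 0.000391). Abcg4, an exporter, and Lrp1, an endocytic receptor, were higher in FL1 estrus (log2FC 1.23 and 0.40, adjusted p = 0.0128 and 0.0133). The remaining calls of the list, named after their values were seen, were Apoc1 and Stard5. Apoc1, a small apolipoprotein, was at 16.5 ± 5.56 CPM in FL1 diestrus and 6.26 ± 2.58 CPM in ctrl diestrus (log2FC 1.38, SE 0.31, adjusted p = 0.0211) and lower in FL1 estrus (log2FC -0.93, SE 0.30, adjusted p = 0.046). Stard5, a sterol carrier, was lower in ctrl estrus (log2FC -0.996, SE 0.24, adjusted p = 0.046).

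Marker genes of the ovary's cell types were read beside the cholesterol genes. Over all tested genes, 15.9% were called between the stages in FL1, 2.85% between the stages in ctrl and 4.11% between the lines in diestrus. Of 6 tested luteal markers, 4 fell and 1 rose in estrus of FL1, with Lhcgr, the luteinizing hormone receptor, at 94.8 ± 19.3 CPM in estrus and 591 ± 145 CPM in diestrus (log2FC -2.64, SE 0.18, adjusted p = 6.3e-08). Prlr and Sfrp4 also fell (log2FC -1.40 and -1.13). In diestrus 1 of the 6, Lhcgr, was higher in FL1 (log2FC 1.43, SE 0.32, adjusted p = 0.0209), and in ctrl 1 fell and 1 rose. The sum of the 7 luteal markers on the list was 14069 to 23264 CPM in FL1 diestrus, 10111 to 21606 in FL1 estrus, 17880.4 to 30331 in ctrl diestrus and 4194 to 20851 in ctrl estrus, and ctrl estrus 5 had the highest sum of its group. The sum of the 18 synthesis enzymes other than Hsd17b7 was 3275 to 4896 CPM in FL1 diestrus, 1504 to 2148 in FL1 estrus, 1763 to 4395 in ctrl diestrus and 1206 to 3108 in ctrl estrus. In FL1 the synthesis sums of the stages did not overlap while the luteal sums did. Marker by marker, 4 of the 6 tested luteal genes were free of overlap there, against 12.2% of all tested genes. Their median log2FC was -0.995 in FL1 and -0.90 in ctrl, compared with -1.01 and -0.40 for the cholesterol genes. The part of cell composition in the stage and line differences was not tested.

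**Figure D4:**
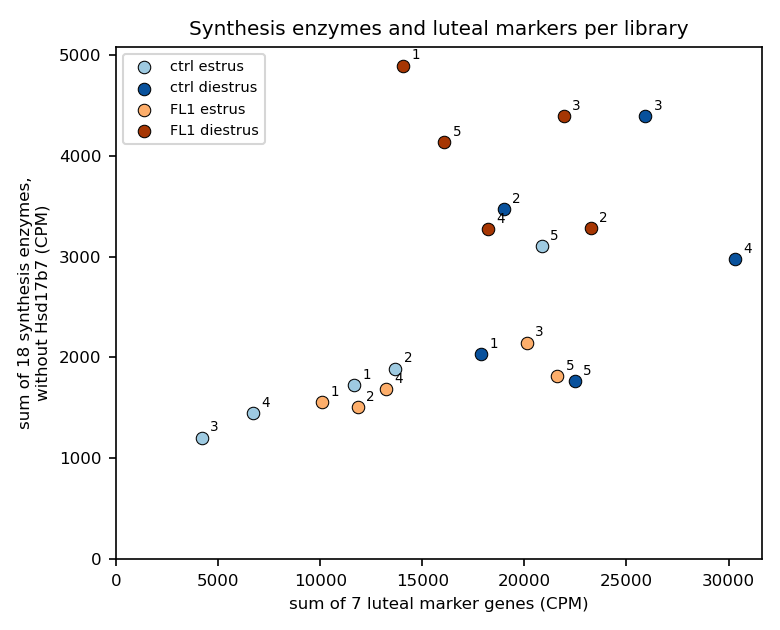
Sum of 18 synthesis enzymes without Hsd17b7 (vertical axis, CPM) against the sum of 7 luteal markers (horizontal axis, CPM), 1 point per library with its replicate number, coloured by group. The FL1 diestrus libraries sit between 3275 and 4896 CPM of synthesis enzymes, above all FL1 estrus libraries, whose highest is 2148, and ctrl estrus 5 and ctrl diestrus 5 lie away from most of their groups.

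Genes of other cell type lists were called as well. The shares of all tested genes called were 15.9% between the stages in FL1 and 2.85% in ctrl. Between the lines they were 4.11% in diestrus and 2.33% in estrus, and counts of 1 in a short list can lie near such shares. In FL1 between the stages, 3 of 6 granulosa markers fell (Foxl2, Cyp19a1 and Inhba), as did 2 of 3 theca and interstitial markers (Aldh1a1 and Cyp17a1, the latter with log2FC -3.83, SE 0.18, adjusted p = 1.1e-09) and 4 of 5 blood genes (Hba-a1, Hbb-bs, Hbb-bt and Alas2). In the same comparison 1 of 7 oocyte markers (Bmp15), 1 of 5 fat genes (Car3) and 1 of 2 tested oviduct genes (Krt7) rose, and 0 of 8 macrophage markers were called in edgeR, where 0 had an unadjusted p under 0.05. Between the lines in diestrus 1 of 6 granulosa markers (Foxl2), 1 of 5 blood genes (Hba-a2) and 2 of 8 macrophage markers (Cd68 and Lyz2) were higher in FL1. In estrus 1 of 8 macrophage markers (Lyz2) was higher in FL1. Most of the macrophage list went the other way, with 5 of 8 log2FCs negative in diestrus and 6 of 8 in estrus (medians -0.07 and -0.34). Hba-a1 and Hba-a2 are near-identical copies, so the split of reads between them is uncertain. In ctrl between the stages Inhba and Cyp17a1 fell and Cd68 rose. The summed level was 138 to 443 CPM for the 7 oocyte markers, 967 to 3407 for the 7 granulosa markers and 634 to 2634 for the 5 theca and interstitial genes, so that transcripts of these cells were present in every library, although Amh and Insl3 had at most 6 and 3 counts in any library. Fat genes summed to 25.2 to 144 CPM in ctrl estrus, with the highest value in ctrl estrus 5, 64.1 to 129 in FL1 estrus, 22.4 to 52.6 in ctrl diestrus and 25.1 to 62.1 in FL1 diestrus. The oviduct genes stayed at 9.74 to 39.4 CPM in sum, with Ovgp1, Pax8 and Foxj1 at no more than 2.36 CPM in any library, the macrophage markers at 203 to 585 CPM and the blood genes at 441 to 3526 CPM.

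Some of the genes share their 3' ends with other genes, which matters in a method that reads these ends. Fdft1 overlaps Ctsb on the opposite strand, with 6218 counts for Fdft1 and 108955 for Ctsb over all libraries, and Cyp51 overlaps Akap9 (32209 and 16119 counts) and Srebf1 overlaps Rai1 (4246 and 3488). The 3' ends of 7 of the 37 genes, Acat2, Idi1, Fdps, Ggps1, Fdft1, Sc5d and Dhcr7, had near-identical stretches elsewhere. The copies of Fdps, 5 pseudogenes, had at most 76 counts against 11820 for Fdps, the copy of Acat2, Acat3, had 546 against 15536, and 1 of the genes that share a stretch with Dhcr7, D10Wsu102e, had 6874 against 54627. The values of these genes are therefore less certain than those of the others.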

How the data were processed

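Ovary RNA of 20 mice was sequenced from 3' ends (QuantSeq), 1 library per animal. What the authors deposited were unnormalised counts of uniquely assigned reads, by Ensembl gene. Per the study's methods and the submitters' processing notes, trimmed reads were aligned with STAR to GRCm38, and Cuffdiff is also named in the notes. The counting tool and its strand setting are not given in the sources used here. Reads of near-identical or overlapping genes can therefore be lost or shared. No molecular identifiers are named, so that floors cover counting error only. Intervals, taken from the edgeR fits, also cover the spread between the animals of a group. Neither covers reads lost or shared between genes.

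Groups came from the titles in the labels. The line of each library was read from its title, whereas the source label names FL1 for all 20 libraries, ctrl included. Symbols and positions were taken from GENCODE M21, which held 54809 of 54838 genes. The deposited counts were tested with edgeR 4.0.16 (TMM, filterByExpr with a minimum count of 10, glmQLFit and glmQLFTest) in R 4.3.3 in the 10 libraries of each comparison, and in all 20 for the interaction. P-values were adjusted by Benjamini-Hochberg over all tested genes. The SE was derived from log2FC and the F statistic. CPM use TMM factors over all 20 libraries, at 5991223 to 10352718 counts per library. The edgeR fit was tested on simulated data. DESeq2 1.42.0, its size factors, limma-voom (limma 3.58.1), other filters on low counts, 1 fit of all 20 libraries, a replicate block and leaving out each library were tried. No 2 libraries of a group were duplicates (chi-square per gene 6.32 to 46.6 over 40 pairs). Copies of 3' ends were searched in the final 300 nt of transcripts as 50 or more shared words of 31 nt.

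The 37 genes and all lists were chosen with earlier results of these data known. Every library's value is printed for the 14 called genes with the smallest adjusted p, ranges are given for the others, and from other lists at most 3 called genes are named, smallest adjusted p first, with Star and Cyp11a1. Called genes named beyond these 3 of a list were named after their values were seen. Lists covered fatty acid synthesis, steroid synthesis, other cholesterol genes, and oocyte, granulosa, luteal, theca, macrophage, fat, oviduct and blood markers. No protein sequences were used here, and promoter windows of Fdps, Fdft1, Sqle, Scarb1, Npc1, Stard4 and Abcg1 were not analysed here.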

Additional observations from a re-analysis of the deposited data

Results flagged for a closer look

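Of 144 sets of 5 libraries, 36 of the 37 genes in each of the 4 groups, 13 had 1 library whose gap to its nearest neighbour was over 0.71 of the whole range of the group, and chance gives about 1 in 20. In ctrl estrus 5 this held for 4 genes, Fdft1 at 49.7 CPM, Cyp51 at 423 CPM, Npc2 at 804 CPM and Apoe at 906 CPM, each the highest of its group. It is the library that stood apart over all genes.

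In FL1 estrus, replicate 3 was highest for Nsdhl (86.3 CPM) and Hsd17b7 (128 CPM), replicate 5 was highest for Insig1 (14.5 CPM) and replicate 1 was lowest for Nr1h3 (9.72 CPM). Replicate 3 of ctrl estrus was highest for Scap (311 CPM). In ctrl diestrus, replicate 4 was lowest for Srebf2 (56.2 CPM) and replicate 5 was highest for Mylip (36.2 CPM). In FL1 diestrus, replicate 2 was lowest for Npc1 (47.8 CPM) and replicate 4 was lowest for Npc2 (860.1 CPM), both in groups with a narrow spread. The causes were not tested.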

How the results depend on the processing

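No called gene among the 37 changed its direction under any setting run. The 23 genes lower and 1 higher in estrus of FL1 became 21 to 27 calls under the other settings and 22 to 25 when 1 library was left out, and the 6 calls between the lines in diestrus became 6 to 9 and 4 to 7. The other counts were less steady. In estrus the 1 gene called between the lines became 2 in DESeq2, 2 in a fit of all 20 libraries, with Sc5d not among them, and 0 to 1 when 1 library was left out. In ctrl the 3 genes called between the stages became 6 in DESeq2, 5 without the filter on low values (every gene with a count), 9 in the fit of all 20 libraries, 2 in limma-voom and 2 to 5 when 1 library was left out, with 5 without ctrl estrus 5, of which 2 were among the 3. The interaction called 3 in DESeq2, 1 without the filter and 0 when any 1 library was left out.

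Over all genes, the 311 calls between the lines in estrus became 670 in DESeq2, 477 without the filter, 531 in the fit of all 20 libraries and 175 to 418 when 1 library was left out. The 545 in diestrus became 891 in DESeq2, 846 without the filter and 349 to 594. The 380 between the stages in ctrl became 771 in DESeq2, 909 in the fit of all 20 libraries and 176 to 516. The 8 of the interaction became 148 in DESeq2, 3 in limma-voom, 17 without the filter and 0 to 15. The causes were not tested.

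The replicate numbers mark different animals. Over 20 pairs of groups and numbers, the correlation of deviations from the group means was -0.132 to 0.171, over 0.1 in 5, and 6 of the 20 libraries correlated best with a library of their own number. With the replicate number as a block, the calls among the 37 genes were 1 and 6 between the lines in estrus and diestrus, 2 and 26 between the stages in ctrl and FL1 and 0 in the interaction, and over all genes 230, 498, 259, 2020 and 12.

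With 5 animals per group and the spread seen in ctrl, genes such as Dhcr7 and Scarb1 had intervals wide enough to hold the FL1 difference in ctrl as well, and Idi1 was too low to be tested there.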

Other observations

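Genes that share the SREBP system or draw on its product followed the stages in part. Of 12 genes of fatty acid synthesis and desaturation, which SREBP factors also drive, 7 fell in estrus of FL1 in edgeR and none rose, with a median log2FC of -0.66, against 8.49% of all tested genes called lower. Fads1 and Elovl5, which desaturate and lengthen polyunsaturated chains, had log2FCs of -1.05 and -1.10 (adjusted p = 1.26e-05 and 1.42e-05). The desaturase gene Scd2 was at 682 ± 104 CPM in FL1 estrus and 1135 ± 103 CPM in FL1 diestrus (SD, n = 5; log2FC -0.74, SE 0.11, adjusted p = 0.000166). In ctrl none of the 12 was called between the stages in edgeR, where 7 had an unadjusted p under 0.05 (median log2FC -0.40). Of all tested genes 2.85% were called there. Between the lines 1 of the 12 was called, Elovl6 in diestrus (log2FC 0.52, SE 0.12, adjusted p = 0.024), named after its values were seen. Of all tested genes 4.11% were called in that comparison and 2.33% between the lines in estrus.

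Of 7 genes that bring cholesterol into steroid synthesis, 3 fell and 1 rose in estrus of FL1, where 15.9% of all tested genes were called. None of the 7 was called in ctrl between the stages or between the lines in either stage. Of all tested genes 2.85% were called in ctrl, and 2.33% and 4.11% between the lines in estrus and diestrus, so 0 of 7 lies near these shares. In edgeR 3, 0 and 2 of the 7 had an unadjusted p under 0.05 in ctrl, in estrus and in diestrus. Star, which moves cholesterol into mitochondria, was at 2127 ± 1105 CPM in FL1 estrus and 6240.4 ± 1246 CPM in FL1 diestrus (n = 5; log2FC -1.56, SE 0.29, adjusted p = 0.00142), and its ctrl means were 3777 ± 2144 CPM in estrus and 6147 ± 2259 CPM in diestrus. Cyp11a1, the side-chain cleavage enzyme, had log2FCs of -0.79 in FL1 (adjusted p = 0.00219) and -0.57 in ctrl (adjusted p = 0.312). Hsd3b1 fell in estrus of FL1 (log2FC -0.78, SE 0.11, adjusted p = 9.9e-05) and Tspo, a mitochondrial membrane protein, rose (log2FC 0.54, SE 0.11, adjusted p = 0.00273).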
